A study of Saccharomyces cerevisiae with 40 samples.

Results

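A set of 9 genes of phosphate uptake in budding yeast, Saccharomyces cerevisiae, is described here over all groups of a study in which cultures were given an excess of 1 amino acid. Its members, PHO84, PHO89, PHO87, PHO90, PHO91, SPL2, PHO4, PHO80 and PHO81, were chosen by gene name from the 6462 genes of the deposited table, with their levels in these libraries already known, so their differences from the control are given with their error and without a test. Messenger RNA was sequenced from 40 libraries in 10 groups of 4. The amino acids given were the small or branched Ala (alanine), Gly (glycine), Val (valine) and Ile (isoleucine), the hydroxylated Thr (threonine), the aromatic Phe (phenylalanine) and Trp (tryptophan), and the sulfur-containing Cys (cysteine) and Met (methionine), and the remaining group is the control, Ctrl. Each group has 1 library of each batch letter, A to D, per the labels. Strain, genotype, dose, time of exposure and phosphate content of the medium were not stated in these sources, and whether the cultures of a group were grown separately is also unknown, so errors measure the spread between these libraries, which may be partly technical. The 9 comparisons with Ctrl share the same 4 Ctrl libraries.

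Yeast takes up inorganic phosphate through high-affinity and low-affinity carriers in the plasma membrane. Pho84 is the high-affinity proton-coupled carrier and Pho89 the sodium-coupled one, while Pho87 and Pho90 are low-affinity carriers with an SPX domain, and Pho91 exports phosphate from the vacuole. When phosphate is short, the cyclin-dependent kinase inhibitor Pho81 restrains the kinase formed by the cyclin Pho80 with Pho85, the transcription factor Pho4 stays in the nucleus, and genes of the PHO regulon are transcribed, among them SPL2, whose product restrains low-affinity uptake.

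Pho4 is known to bind the hexamer CACGTG and the related CACGTT, whose reverse complement is AACGTG. The 600 bases before each start codon were searched for both on both strands in the R64 reference. The authors' build is not given in the sources used here. Genes were matched by systematic name and the coordinates and letters are those of R64. The 4 members with the widest range between groups are shown here, each read 5′ to 3′ on the strand of its gene, which is the minus strand for all 4, with the motifs in capitals. The PHO84 stretch is chrXIII:26042-26251, 451 to 242 bases before the start codon. That of PHO89 is chrII:798825-799000, 478 to 303 bases before it. SPL2 is shown for chrVIII:375227-375476, 376 to 127 bases before its start, and PHO81 for chrVII:958534-958569, 359 to 324 bases before.
PHO84: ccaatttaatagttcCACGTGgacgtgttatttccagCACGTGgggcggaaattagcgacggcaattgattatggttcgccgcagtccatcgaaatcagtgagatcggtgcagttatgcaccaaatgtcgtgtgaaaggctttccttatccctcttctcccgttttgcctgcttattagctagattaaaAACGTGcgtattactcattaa
PHO89: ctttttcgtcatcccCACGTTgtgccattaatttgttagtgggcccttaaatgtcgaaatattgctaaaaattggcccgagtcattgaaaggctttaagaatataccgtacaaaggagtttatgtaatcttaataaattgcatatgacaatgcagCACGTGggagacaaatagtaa
SPL2: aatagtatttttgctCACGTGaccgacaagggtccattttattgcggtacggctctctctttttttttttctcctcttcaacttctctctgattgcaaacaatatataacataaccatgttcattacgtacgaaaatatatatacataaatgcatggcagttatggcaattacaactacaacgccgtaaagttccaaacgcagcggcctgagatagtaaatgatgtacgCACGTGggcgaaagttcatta
PHO81: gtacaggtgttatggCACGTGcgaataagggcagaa
PHO84 held 2 CACGTG motifs, at 436 and 414 bases before its start codon, and the related motif at 587 and 262 bases. PHO89 had CACGTG at 323 bases and CACGTT at 463 bases. SPL2 carried CACGTG 4 times, at 361, 147, 90 and 31 bases, and PHO81 had it at 344 bases with the related motif at 8 bases. Among the members of flatter level, PHO87 had CACGTG at 132 bases and PHO91 at 201 bases, PHO80 had the related motif at 490 bases, and PHO90 and PHO4 had neither. In all, 7 of 9 members held at least 1 of the motifs and 6 held CACGTG, against 24.4% and 7.23% of 5999 yeast genes with a window of that length. Of 36 other genes of the phosphate pathway, 23 held at least 1 and 17 held CACGTG. A match describes letters in the window and does not show binding.

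Levels are normalized read counts as deposited, each library's reads divided by 1 factor. Estimated depth was 5555866 to 17928683 reads per library (median 8736146), and 1 read was worth 0.498 to 1.69 normalized reads. All 9 members passed the filter on low values (mean of 5 or more) that left 6103 genes for testing. In R64 the PHO84 gene lies inside an antisense RNA gene on the other strand, and whether counting used the strand is not given in the labels, so reads of the pair cannot be told apart. The mean log2 level of 10 stress genes (HSP12, HSP26, CTT1, DDR2, TPS2, GSY2, PGM2, SSA4, HSP104 and GRE1) was 8.28 to 10.53 in Gly and 7.06 to 9.71 in Phe, against 7.26 to 7.57 in Ctrl. Besides Gly, all libraries of Ala (7.955 to 9.19), Trp (7.96 to 8.399), Thr (7.893 to 8.239) and Met (7.744 to 8.704) were above Ctrl. Phe, Val, Ile and Cys overlapped Ctrl in this level. Its 3 highest libraries were Gly replicates A and C and Phe replicate C. For Gly and Phe, the log2 differences of members that these libraries move, and the counts, are given without them too.

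PHO84 (YML123C) spanned the groups from Gly, the highest, to Cys, the lowest. It had 20837, 42598, 22069 and 38959 normalized reads in Gly libraries A to D and 16404, 20850, 24308 and 19285 in Trp libraries, against 1003, 1616, 1784 and 2451 in Ctrl libraries. Every Gly and Trp library lay far above every Ctrl library, and Gly and Trp overlapped each other. In bulk RNA, more RNA per cell and more cells that express a gene cannot be told apart. The log2 difference from Ctrl was 4.18 ± 0.26 in Gly (SE from limma over all 40 libraries, as in all such values here) and 3.62 ± 0.26 in Trp, which is 18.2 and 11.8 times the Ctrl mean. In the other direction, Cys libraries had 455, 466, 681 and 597 normalized reads, all below Ctrl, with a log2 difference of -1.59 ± 0.26.

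Between these ends stood an ordered series of groups. PHO84 had 13174, 14543, 13482 and 14104 normalized reads in Phe libraries A to D, and 13978, 14002, 11233 and 14692 in Thr libraries. Met libraries had 6080, 6219, 6208 and 7925 and Val libraries 3634, 4578, 4171 and 4448. Phe and Thr overlapped, Met lay below both in every library, Val lay below Met, and all 4 groups lay above Ctrl, with log2 differences of 3.08, 3.04, 2.01 and 1.36 (each ± 0.26). Ala, with 1879, 3472, 993 and 3014, and Ile, with 2088, 2277, 2114 and 2842, overlapped Ctrl, at log2 differences of 0.37 and 0.50. Set against the Ctrl library of the same batch letter, the PHO84 difference was 3.63 to 4.72 in Gly, 2.98 to 4.03 in Trp, 2.52 to 3.71 in Phe, 2.58 to 3.80 in Thr, 1.69 to 2.60 in Met, 0.86 to 1.86 in Val and -2.04 to -1.14 in Cys. In Ile, which overlapped Ctrl, it was 0.21 to 1.06, and in Ala the same-letter differences took both signs, -0.84 to 1.10.

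**Figure D1:**
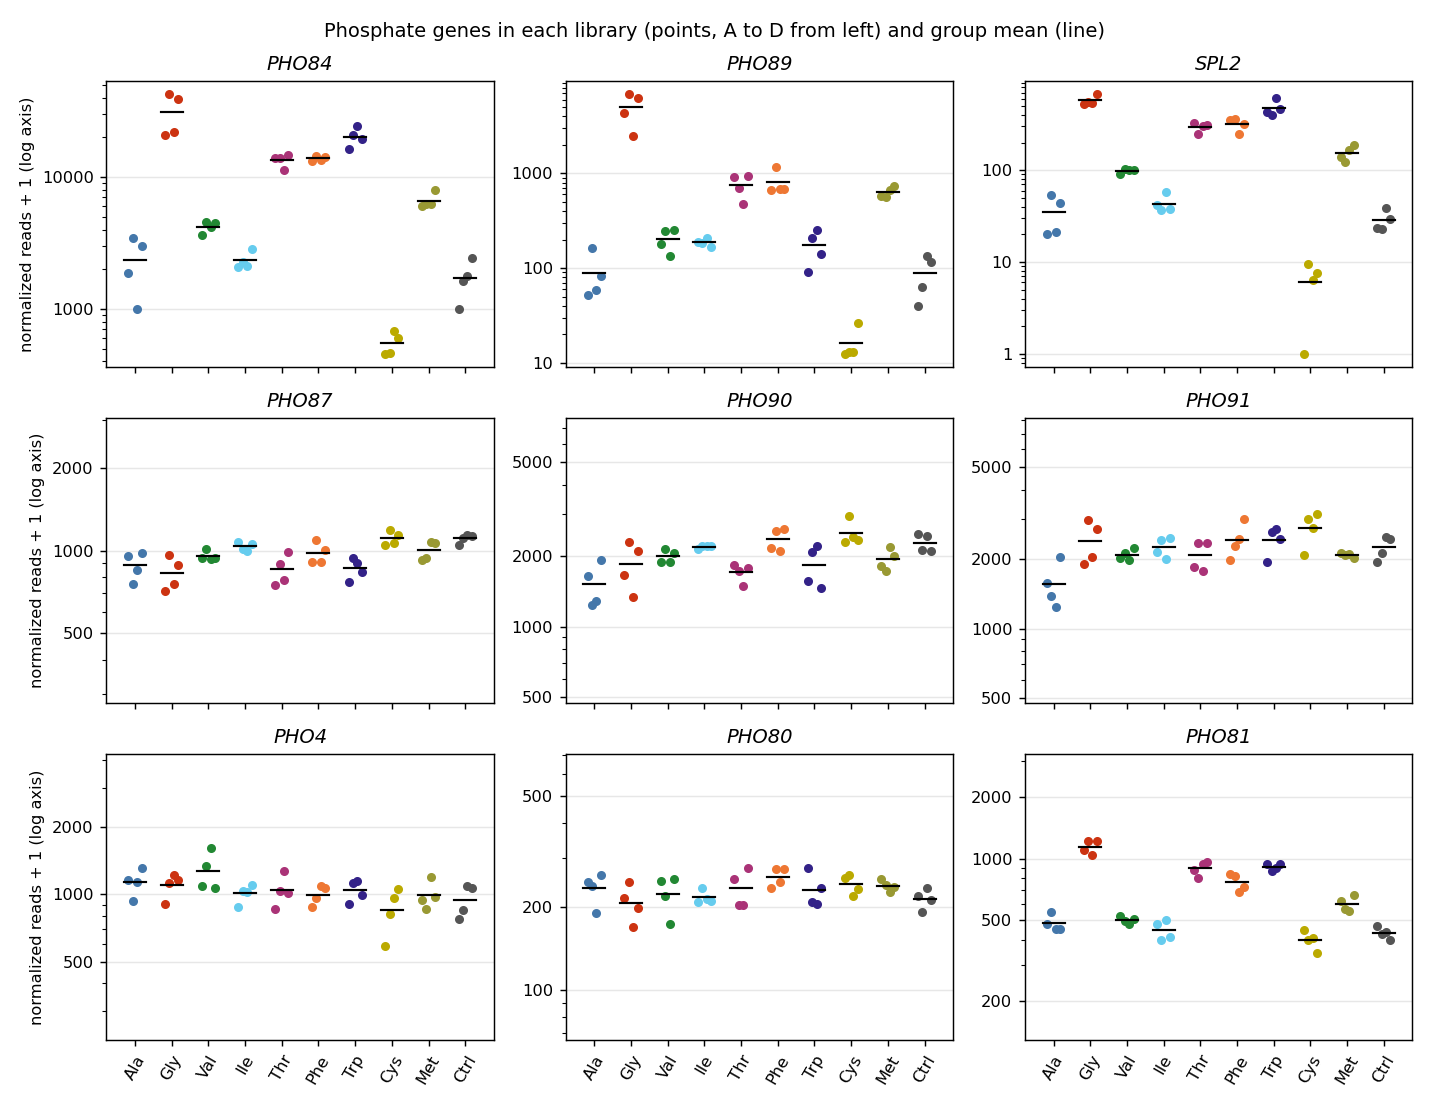
Normalized reads plus 1 (log axis, with its own range in each panel) of the 9 phosphate genes in the 40 libraries, by group, with the amino acids left of Ctrl. Points are libraries A to D from left to right and lines are group means. PHO84, PHO89, SPL2 and PHO81 have their highest mean in Gly and their lowest in Cys, where PHO81 alone among them overlaps Ctrl.

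PHO89 (YBR296C) covered a wider range than PHO84. Its order of groups differed in the place of Trp, and Ile stood above Ala. Gly libraries A to D had 4328, 6885, 2496 and 6262 normalized reads, against 38.6, 61.5, 133.7 and 114.1 in Ctrl libraries. That is a log2 difference of 5.88 ± 0.36, or 57.4 times the Ctrl mean, and no other group overlapped Gly. Phe had 668.5, 1165.8, 687.9 and 678.6, Thr had 923.2, 700.4, 479.0 and 929.3, and Met had 574.4, 566.7, 663.9 and 732.5, with log2 differences of 3.30, 3.22 and 3.0 (each ± 0.36). These 3 groups overlapped one another and lay above Ctrl in every library. In Trp, by contrast, PHO89 had 89.8, 206.6, 251.5 and 141.1 normalized reads, which overlapped Ctrl (log2 difference 1.03 ± 0.36) although PHO84 was second highest there.

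Val (178.7, 242.3, 134.1 and 251.3 normalized reads of PHO89) and Ile (187.0, 184.4, 206.3 and 165.6) lay above all 4 Ctrl libraries. The lowest Val library exceeded the highest Ctrl library by less than 1 normalized read, so this separation is at the edge. Ala had 50.5, 161.0, 57.8 and 81.0 and overlapped Ctrl. In Cys PHO89 had 11.4, 11.8, 12 and 24.9 normalized reads, from 9, 7, 18 and 15 reads, against 26, 62, 228 and 104 reads in Ctrl. All Cys libraries were below all Ctrl libraries, with a log2 difference of -2.37 ± 0.36. Same-letter differences of PHO89 were 4.21 to 6.78 in Gly, 2.35 to 4.22 in Phe, 1.83 to 4.55 in Thr, 2.30 to 3.86 in Met, 0.30 to 1.73 in Trp and -3.37 to -1.68 in Cys.

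Within Gly, both high-affinity genes were lower in replicates A and C, in which the stress genes were higher (9.46 and 10.53, against 8.28 and 8.65 in replicates B and D), and their part in the spread was not tested. Without the 3 libraries highest in stress genes, a choice made after seeing the data, the Gly difference was 4.64 for PHO84 and 6.38 for PHO89, and the Phe difference 3.09 and 3.36. For SPL2 and PHO81 these values were 4.46 and 1.5 in Gly and 3.63 and 0.88 in Phe.

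Setting PHO89 against PHO84 in the same library removes the scaling of that library. PHO89 was 0.548, 0.991, 1.03 and 0.731% of PHO84 in Trp libraries A to D, against 3.85, 3.81, 7.50 and 4.66% in Ctrl libraries. No library of another group was as low as Trp, the next being a Cys library at 1.76%. At the other end the ratio was 20.8, 16.2, 11.3 and 16.1% in Gly libraries, all above Ctrl, and 9.11 to 10.7% in Met, also above. It was 4.26 to 6.60% in Thr, 4.81 to 8.02% in Phe, 3.22 to 5.65% in Val and 5.83 to 9.76% in Ile, all of which overlapped Ctrl, as did Ala (2.69 to 5.82%) and Cys (1.76 to 4.18%). Gly and Trp, which overlapped in PHO84, were thus apart in this ratio. These ratios are of normalized reads, and the coding lengths of the 2 genes, 1764 and 1725 bases, are close.

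**Figure D2:**
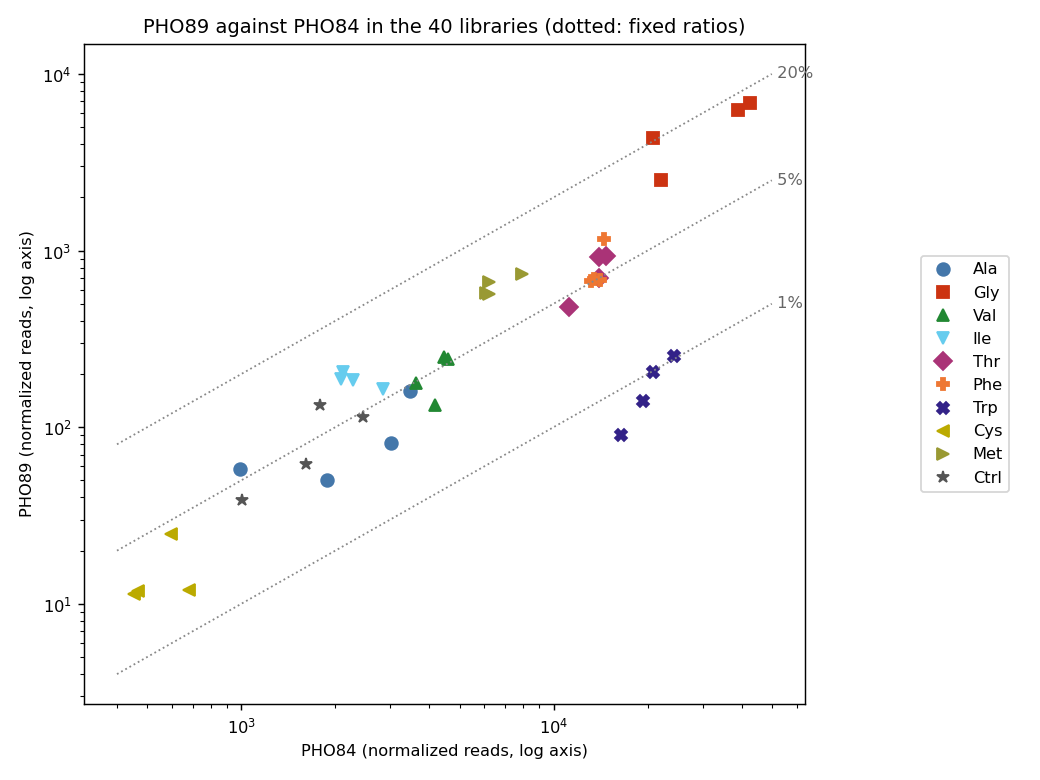
PHO89 against PHO84 in each of the 40 libraries, in normalized reads on log axes, with 1 symbol and colour per group and dotted lines at fixed ratios. The 4 Trp libraries lie near the lowest line, at 0.548 to 1.03%, and the 4 Gly libraries at 11.3 to 20.8%, against 3.81 to 7.50% in Ctrl.

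SPL2 (YHR136C), the gene of the inhibitor of low-affinity uptake, had the same order of groups as PHO84 except that Ala and Ile changed places. Gly libraries A to D had 530.3, 554.4, 541.1 and 675.6 normalized reads and Trp libraries 433.8, 402.5, 604.0 and 469.6, against 22.3, 21.8, 37.5 and 28.5 in Ctrl libraries. The log2 differences were 4.36 ± 0.38 and 4.08 ± 0.38, and as for PHO84 the 2 groups overlapped each other and lay above all others. Phe had 353.2, 360.3, 245.9 and 317.9, Thr had 326.8, 244.2, 300.5 and 311.9, Met had 139.8, 122.1, 165.4 and 186.0, and Val had 90.6, 102.1, 99.0 and 99.6. All libraries of these 4 groups were above Ctrl, at log2 differences of 3.51, 3.40, 2.45 and 1.82. Ile (35.5 to 56.4) and Ala (19.4 to 52.8) overlapped Ctrl.

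In Cys, SPL2 was at the limit of detection. The 4 libraries held 0, 5, 8 and 4 reads, 17 in all, against 15, 22, 64 and 26 in Ctrl libraries, 127 in all. The library at 0 allows a level of up to 3.79 normalized reads (3 reads, counting error only), and all 4 Cys libraries were below all Ctrl libraries. The log2 difference of -2.59 ± 0.38 depends on the pseudocount at so few reads, and was -3.16 with 0.25 and -1.88 with 4 in place of 1. As a share of PHO84 in the same library, SPL2 was 1.30 to 2.55% in Gly, 1.93 to 2.64% in Trp, 1.82 to 2.68% in Phe, 1.74 to 2.68% in Thr, 1.96 to 2.66% in Met and 2.23 to 2.49% in Val, against 1.16 to 2.22% in Ctrl. Apart from Val, whose lowest library just passed the highest Ctrl library, these ranges overlapped that of Ctrl, unlike the ratio of PHO89 to PHO84 in Trp and Gly.

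The low-affinity genes moved little. PHO87 (YCR037C) had 709.7, 966.9, 755.8 and 889.4 normalized reads in Gly libraries A to D, against 1052, 1113, 1146 and 1133 in Ctrl libraries. Libraries of Ala (758.5 to 981.0), Gly, Val (934.0 to 1016.6), Thr (748.9 to 991.0) and Trp (766.5 to 941.6) all lay below Ctrl, at log2 differences of -0.33, -0.43, -0.21, -0.39 and -0.37 (each ± 0.09). In Ile, Phe, Met and Cys it overlapped Ctrl, at -0.10, -0.18, -0.15 and 0.00. PHO90 (YJL198W) lay below all Ctrl libraries in Ala, at 1230 to 1913 normalized reads, and in Thr, at 1490 to 1831, against 2089 to 2476 in Ctrl, with log2 differences of -0.60 ± 0.14 and -0.42 ± 0.14. In Gly its libraries, 1655, 2299, 1337 and 2100, overlapped Ctrl, and so did those of the other groups. Without the 3 libraries highest in stress genes the Gly difference was -0.05 for PHO90, against -0.33 with them, and -0.26 for PHO87, against -0.43, with both remaining Gly libraries of PHO87 still below Ctrl. Set against the Ctrl library of the same batch letter, PHO87 was lower in all 4 letters also in Phe (-0.33 to -0.02) and Met (-0.24 to -0.08), and PHO90 also in Trp (-0.66 to -0.03) and Met (-0.45 to -0.07).

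PHO91 (YNR013C), the vacuolar exporter, overlapped Ctrl in all 9 comparisons. Its means were between 1560 ± 350.5 normalized reads in Ala and 2734 ± 462.7 in Cys, against 2247 ± 263.2 in Ctrl (SD, n = 4 each). The log2 difference was -0.54 ± 0.15 in Ala and 0.27 ± 0.15 in Cys, and between -0.11 and 0.11 in the others. Against the Ctrl library of the same letter, PHO91 was lower in all 4 letters in Ala (-1.01 to -0.25). It was higher in all 4 in Cys (0.10 to 0.49) and in Trp (0.0 to 0.31), although these groups overlapped Ctrl. Without the 3 libraries highest in stress genes, leaving Gly with replicates B and D, PHO91 in Gly was at a log2 difference of 0.34, against 0.08 with them.

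**Figure D3:**
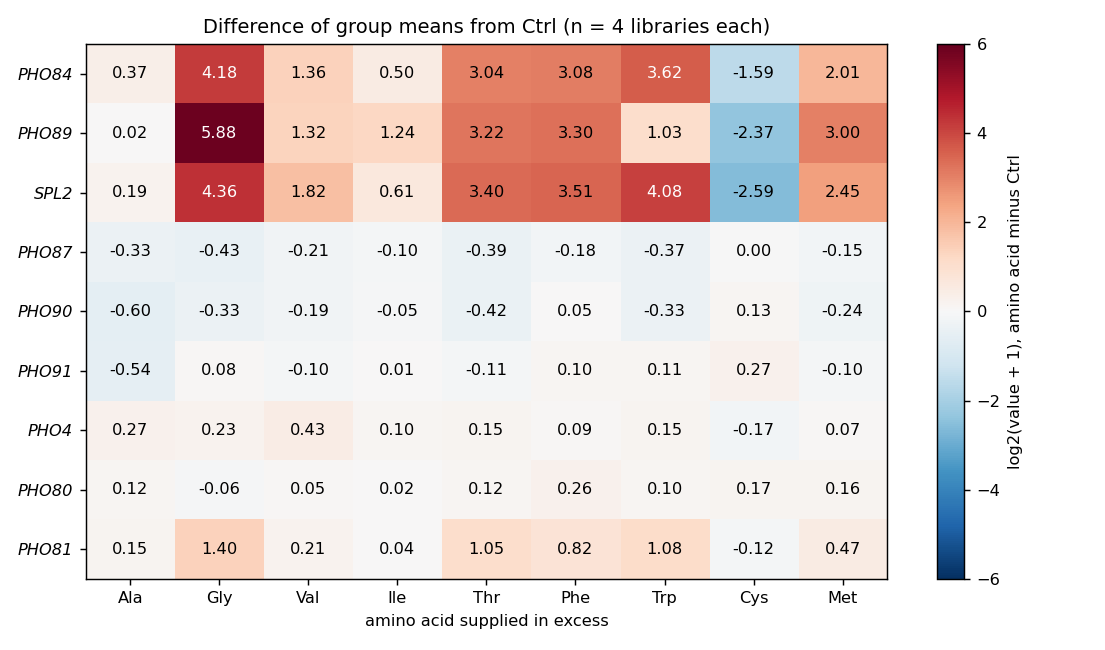
Log2 difference of each of the 9 genes (rows) between each amino acid (columns) and Ctrl, on the scale of log2(normalized reads + 1), n = 4 libraries per group. Red is higher and blue lower in the amino acid: PHO84, PHO89, SPL2 and PHO81 carry the large differences, and the other 5 genes stay between -0.60 and 0.43.

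Levels of different genes are compared per kb of coding sequence. The 5 carrier transcripts together came to 22427 ± 7835 normalized reads per kb in Gly, 13464 ± 2163 in Trp, 10451 ± 651.0 in Phe, 9808 ± 1141 in Thr, 5983 ± 570.1 in Met and 2685 ± 281.4 in Cys, against 3120 ± 416.7 in Ctrl (SD, n = 4 each). PHO84 made up 78.4 ± 2.86% of that sum in Gly, 85.1 ± 0.658% in Trp, 77.9 ± 0.430% in Thr, 75.1 ± 1.44% in Phe, 62.5 ± 2.66% in Met and 11.7 ± 2.16% in Cys, against 30.5 ± 7.11% in Ctrl. Libraries of Thr and Trp lay close together in this share, at 77.4 to 78.4% and 84.2 to 85.6%, against 21.6 to 39% in Ctrl. PHO89 reached 12.8 ± 2.64% in Gly, against 1.56 ± 0.653% in Ctrl, and was 0.719 ± 0.199% in Trp. The low-affinity pair and PHO91 held the rest. In Cys, PHO90 and PHO91 were 35.3 ± 3.35% and 37.7 ± 3.08% of the sum, against 28.1 ± 5.55% and 26.9 ± 1.02% in Ctrl. In Gly they were 3.22 ± 0.509% and 4.16 ± 0.654% of the larger sum, while their own levels overlapped Ctrl.

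**Figure D4:**
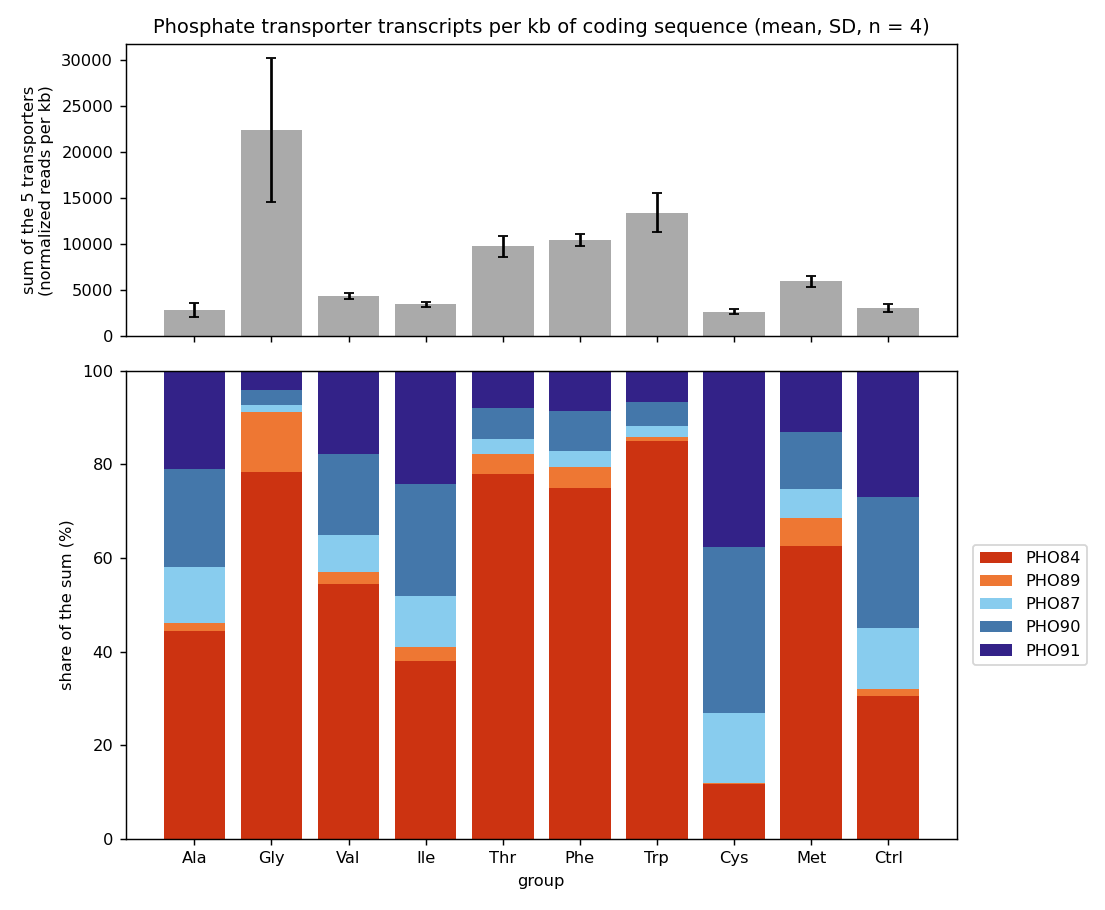
Upper panel: summed level of the 5 phosphate transporter transcripts in normalized reads per kb of coding sequence (bars, mean; error bars, SD; n = 4 libraries). Lower panel: mean share of each in that sum, in percent, with PHO84 at 78.4% in Gly and 85.1% in Trp, against 30.5% in Ctrl.

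Among the regulators, PHO81 (YGR233C), the gene of the kinase inhibitor, lay above all Ctrl libraries in 6 groups, while PHO4 and PHO80 overlapped Ctrl in all 9. It had 1097, 1215, 1048 and 1222 normalized reads in Gly libraries A to D, against 466.0, 428.6, 434.6 and 400.4 in Ctrl libraries. Gly stood above every other group, with a log2 difference of 1.40 ± 0.09. Trp (872.2 to 945.9), Thr (805.1 to 958.4), Phe (682.1 to 839.2), Met (554.8 to 662.2) and Val (476.1 to 525.1) also lay above all Ctrl libraries, at log2 differences of 1.08, 1.05, 0.82, 0.47 and 0.21. In Ala, Ile and Cys it overlapped Ctrl, although in Ala it was higher in all 4 letters (0.03 to 0.35). The Cys difference of PHO81 was -0.12 ± 0.09 (-0.22 to -0.06 by letter), while PHO84, PHO89 and SPL2 were lower in all Cys libraries.

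PHO4 (YFR034C), which encodes the transcription factor, overlapped Ctrl in every comparison. Its means were between 853.1 ± 203.6 normalized reads in Cys and 1276 ± 253.3 in Val, against 945.3 ± 157.7 in Ctrl, and the log2 difference in Gly was 0.23 ± 0.15. PHO80 (YOL001W), which encodes the cyclin, had means of 205.4 ± 31.4 in Gly to 254.5 ± 20.04 in Phe, against 212.5 ± 17.3 in Ctrl, and overlapped Ctrl throughout. By letter, PHO4 was above Ctrl in all 4 in Gly (0.12 to 0.41), Ala (0.05 to 0.57) and Val (0.0 to 0.65). The Val library of letter D barely passed its Ctrl library, at 1068 against 1065 normalized reads. PHO4 was lower in all 4 letters in Cys (-0.40 to -0.02), and PHO80 was higher in all 4 in Phe (0.07 to 0.51). RNA levels do not show the location of Pho4 or the activity of the kinase.

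The counts over the 9 members follow, each beside the share of all 6103 tested genes whose 4 libraries lay wholly above or wholly below the 4 Ctrl libraries. Since the members were chosen with these levels known, nothing is read from the counts. In Gly 4 members lay above (PHO84, PHO89, SPL2 and PHO81) and 1 below (PHO87), with shares of all genes of 12.7% above and 11.2% below. Without the 3 libraries highest in stress genes, PHO91 and PHO4 lay above as well in the 2 Gly libraries left. That made 7 members apart from Ctrl against 5 with them, and the count in Phe was 4 with or without them. Fewer libraries separate more easily from Ctrl, and no share of all genes was taken without those libraries, so the 7 has no background. In Thr the same 4 lay above and 2 below (PHO87 and PHO90), with 10.6% and 10.4%. In Trp 3 lay above (PHO84, SPL2 and PHO81) and 1 below (PHO87), with 12% and 12.7%. In Phe and in Met the 4 lay above and 0 below, with 5.77% and 3.77% in Phe and 9.29% and 8.75% in Met. In Val the 4 lay above and PHO87 below, with 6.98% and 9.08%. In Cys 0 lay above and 3 below (PHO84, PHO89 and SPL2), with 3.64% and 4.75%. In Ile 1 lay above (PHO89) and 0 below, with 3.97% and 4.33%. In Ala 0 lay above and 2 below (PHO87 and PHO90), with 20.2% and 20.2%. The small counts in Ala and Ile rest on single control libraries, because 4 members were apart from Ctrl in Ala without Ctrl replicate A, against 2 with it, and 2 in Ile without Ctrl replicate A, C or D, against 1.

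The other genes of the phosphate pathway were taken as a list of 36 from textbook knowledge, of which 35 could be tested (PHO92 was too low). Earlier results of these data were known when the list was made, so its calls are not independent of them. They were tested with limma against Ctrl, with Benjamini-Hochberg adjustment over all 6103 genes and a threshold of 0.05. In Gly 20 of 35 rose and 3 fell, against 14% and 12.2% of all tested genes. Without the 3 libraries highest in stress genes 21 of the list passed in Gly, against 23 with them, and 12 in Phe, against 10. The share of all genes without those libraries is not given here, so these 2 counts have no background. In Trp 16 rose and 2 fell (6.32% and 6% of all), in Thr 15 rose and 1 fell (5.87% and 5.33%), in Phe 9 rose and 1 fell (3.7% and 1.9%), in Met 9 rose and 4 fell (6.06% and 3.74%), and in Val 8 rose and 0 fell (2.51% and 2.88%). In Ala 9 rose and 8 fell, near the share of all genes (23.1% and 24.2%). In Ile 1 rose and 0 fell (1.26% and 0.655%), and in Cys 1 rose and 2 fell (1.29% and 1.54%). The median log2 difference of the list was 0.46 in Gly, 0.28 in Trp, 0.19 in Thr, 0.10 in Phe, 0.09 in Met, 0.06 in Val, 0.06 in Ala, -0.01 in Ile and -0.12 in Cys, while the median of all tested genes was between -0.02 and 0.00 in each.

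**Figure D5:**
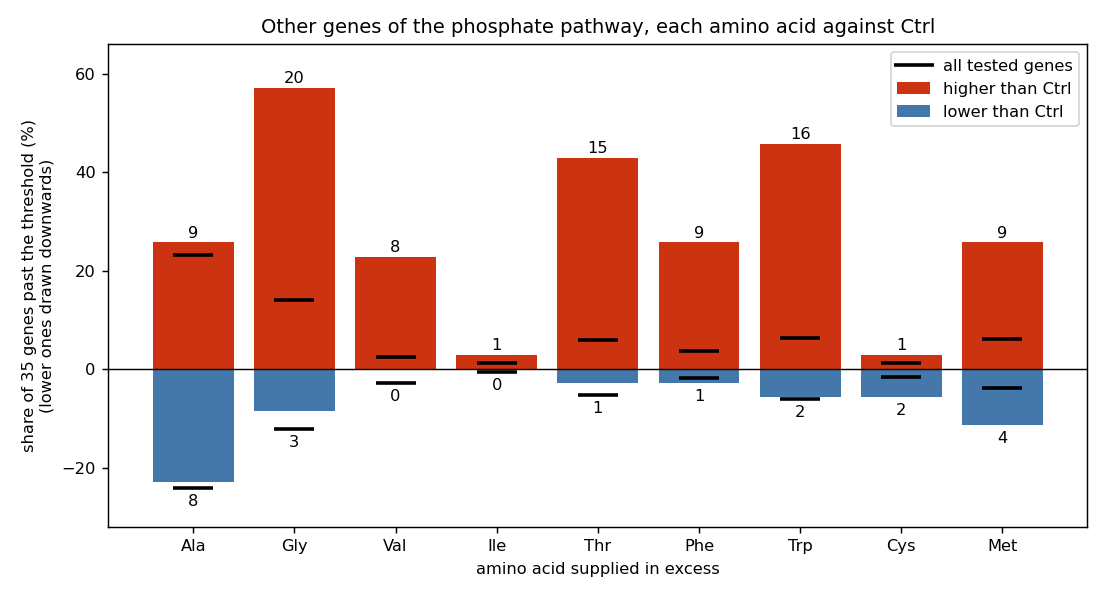
Share of the 35 tested other genes of the phosphate pathway that passed the limma threshold in each amino acid against Ctrl, higher upwards and lower downwards, with the number of genes at each bar. Black marks are the share among all 6103 tested genes, for instance 14% higher in Gly, where 20 genes of the list rose.

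Secreted acid phosphatases led the list. PHO12 (YHR215W) had 803.3, 780.9, 793.6 and 781.9 normalized reads in Gly libraries A to D and 1196, 1245, 1106 and 1321 in Trp libraries, against 43.0, 81.4, 86.2 and 73.5 in Ctrl libraries. Both groups lay clear of Ctrl, and PHO12 rose by 3.50 ± 0.21 in Gly (limma adjusted p = 2.81e-15) and 4.12 ± 0.21 in Trp (adjusted p = 5.46e-17). Its near-identical copy PHO11 (YAR071W) rose by 3.29 ± 0.20 and 3.21 ± 0.20. Both copies held whole reads in all 40 libraries, so reads shared out as fractions were not seen. Reads of 1 copy may still have been assigned to the other, so the values of both genes are uncertain. PHO5 (YBR093C), the main acid phosphatase, had 2732, 4295, 2962 and 5573 in Gly libraries, against 317.6, 335.4, 490.9 and 431.2 in Ctrl libraries, and rose by 3.26 ± 0.20 (limma adjusted p = 1.84e-15), or by 3.66 without the Gly libraries highest in stress genes. PHO5 rose in Trp too, by 1.91 ± 0.20 (limma adjusted p = 5.98e-09). In Thr, Phe, Met and Val the limma differences were 3.13, 3.07, 2.02 and 1.93 for PHO12 and 2.54, 1.52, 0.79 and 0.80 for PHO5, all past the threshold. The PHO5 rise in Val was lost without Val replicate B or Ctrl replicate A (limma adjusted p = 0.0526 and 0.0528), and the Val count of 8 was then 5.

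Enzymes of polyphosphate, the vacuolar phosphate store, rose with them. VTC3 (YPL019C), a subunit of the polyphosphate polymerase complex, had 5026, 7008, 5062 and 6691 normalized reads in Gly libraries, against 618.9, 721.3, 607.7 and 727.4 in Ctrl libraries. It rose by 3.14 ± 0.15 in Gly (limma adjusted p = 2.05e-18), 2.43 ± 0.15 in Trp, 2.31 ± 0.15 in Thr, 2.04 ± 0.15 in Phe, 1.32 ± 0.15 in Met and 0.80 ± 0.15 in Val. Of the 8 polyphosphate genes, 6 rose and 1 fell in Gly, against 14% and 12.2% of all tested genes. In Trp 5 rose and 0 fell (6.32% and 6% of all), in Thr 5 rose and 1 fell (5.87% and 5.33%), in Phe 4 rose and 1 fell (3.7% and 1.9%), in Met 4 rose and 1 fell (6.06% and 3.74%), and in Val 4 rose and 0 fell (2.51% and 2.88%). In Ala 2 rose and 3 fell, against 23.1% and 24.2% of all genes, and 0 were called in Ile or Cys. VTC5, a further subunit of that complex, fell by 0.72 ± 0.11 in Phe (limma adjusted p = 2.61e-05) and 0.53 ± 0.11 in Thr, and also in Ala and Met. The other genes that fell were the subunit gene VTC2 and the polyphosphatase gene PPN2 in Ala and the exopolyphosphatase gene PPX1 in Gly. These 4 genes are outside the rule for named genes and were picked with their values known. PHM6 (YDR281C), a phosphate-starvation gene of unknown function, rose by 1.93 ± 0.32 in Trp (limma adjusted p = 5.02e-05), to 97.6 to 126.1 normalized reads, against 19.7 to 34.02 in Ctrl. Its rise was larger in Gly, at 2.65 ± 0.32, and it also passed in Thr, at 1.83 ± 0.32.

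Of 6 genes that handle transporters in the secretory pathway or carry phosphate elsewhere, such as the mitochondrial carrier gene MIR1, 4 rose and 0 fell in Gly, where 14% and 12.2% of all genes did. In Trp 2 rose and 1 fell (6.32% and 6% of all), and in Ala 1 rose and 2 fell (23.1% and 24.2%). Of the 6, 1 rose and 0 fell in each of Val (2.51% and 2.88%), Thr (5.87% and 5.33%) and Phe (3.7% and 1.9%). The 1 call in Met was lower, against 6.06% higher and 3.74% lower of all genes. Of 11 signalling genes and Pho4 partners tested, among them PHO85 and the inositol pyrophosphate kinase gene KCS1, 3 rose and 1 fell in Gly, 2 rose and 1 fell in Trp, 2 rose and 2 fell in Ala, 2 rose and 0 fell in Thr, and 1 rose and 1 fell in Met, against the same shares of all genes in Gly, Trp and Ala, 5.87% and 5.33% in Thr, and 6.06% and 3.74% in Met. Called genes of that list numbered 0 in Val, Ile, Phe and Cys. Of the 2 genes of glycerophosphodiester use, named after their values were seen, the phosphodiesterase gene GDE1 rose in Ala, Gly, Thr and Trp, and the permease gene GIT1 fell in Gly.

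Ala and Cys had other calls among the phosphatases. In Ala PHO12 rose by 1.62 ± 0.21 (limma adjusted p = 2.11e-07) and PHO11 by 1.08 ± 0.20, while PHO84, PHO89 and SPL2 overlapped Ctrl. PHO3 (YBR092C), a constitutive acid phosphatase that is a close paralog of PHO5, fell in Ala by 1.54 ± 0.13 (limma adjusted p = 8.52e-12), to 2107, 2224, 1451 and 2743 normalized reads, against 5671, 5402, 6498 and 6735 in Ctrl libraries. The fall of PHO3 was not particular to Ala, since it also fell in Met, by 0.54 ± 0.13 (limma adjusted p = 0.00576). PHM8, a lysophosphatidic acid and nucleotide phosphatase, rose in Ala by 1.0 ± 0.15. It rose more in Gly, by 1.52 ± 0.15, and also passed in Thr and Trp, at 0.56 and 0.51 (each ± 0.15). With libraries scaled to equal totals the Ala split of the list was 13 higher and 5 lower, against 9 and 8, since that scaling put the median over all genes at 0.18. Among all 6101 genes tested under that scaling, 2167 were called higher and 757 lower in Ala, so nothing is read from the split. In Cys PHO3 rose by 0.55 ± 0.13 (limma adjusted p = 0.0124), and PHO11 and PHO12 fell by 0.91 ± 0.20 and 0.77 ± 0.21 (adjusted p = 0.00452 and 0.0387). The Cys calls rest on the variance shared over all groups: with limma on the Cys and Ctrl libraries alone 0 genes of the list passed, with adjusted p of 0.208 for PHO11, 0.299 for PHO12 and 0.0662 for PHO3, and without Ctrl replicate B 1 passed. In Ile the 1 call, PHO12 (0.84 ± 0.21, limma adjusted p = 0.0254), was lost without Ile replicate A or D or Ctrl replicate A.

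The genes most like PHO84, SPL2 and PHO89 over the 40 libraries were taken by Pearson r of log2 values among 5786 genes with a mean of at least 20. These values are a description, since the libraries of a group are not independent points. For PHO84 they were VTC3 (r = 0.970), PHO12 (0.954), PHO11 (0.951), VTC4 (0.947) and VTC1 (0.939). For SPL2 the same 5 genes of the phosphate pathway came out, from PHO12 at 0.930 down to VTC4 at 0.890. PHO89 had lower values, led by VTC3 (0.842), BNA2 (0.831), PHO8 (0.826), VTC1 (0.802) and PHO5 (0.795). BNA2 encodes an enzyme of the kynurenine route to NAD and is not a known phosphate gene.

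How the members vary between libraries of the same group does not use the differences that chose them. Deviations from the group mean were compared for all 36 pairs of members over the 40 libraries, with a two-sided permutation test within groups (100000 resamples) and Benjamini-Hochberg adjustment over the 36. Of these, 7 passed, 6 positive and 1 negative. PHO84 and PHO89 deviated together (r = 0.693, permutation p = 0.00028, adjusted 0.00336, rho = 0.718, adjusted 0.00072). Without the 2 libraries farthest out, Ala replicates B and C, r was 0.685. The pair of PHO84 with SPL2 had r = 0.415 and did not pass (permutation adjusted p = 0.0699), nor did PHO89 with SPL2 (r = 0.431, adjusted p = 0.068), and for both pairs Spearman's rho, 0.517 and 0.539, did pass (permutation adjusted p = 0.0267 and 0.0176).

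The 3 genes of little change between groups deviated together as well. PHO87 with PHO90 had r = 0.723 and rho = 0.761 (permutation adjusted p = 0.00336 and 0.00144), PHO87 with PHO91 had r = 0.709 and rho = 0.688 (0.00336 and 0.00387), and PHO90 with PHO91 had r = 0.630 and rho = 0.605 (0.0125 and 0.0111). PHO84 with PHO91 had r = 0.628 and rho = 0.655 (permutation adjusted p = 0.0125 and 0.00387). PHO4 deviated with PHO91 (r = 0.516, rho = 0.477, adjusted p = 0.0125 and 0.0267) and against PHO81 (r = -0.523, rho = -0.535, adjusted p = 0.0125 and 0.00842, permutation test). Without the 2 farthest libraries these r were 0.714, 0.673, 0.568, 0.710, 0.410 and -0.464, in the order given.

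Gene length moved with some of these deviations. A slope of all other genes' deviations on their log2 length, taken in each library over 5481 genes, correlated at r = 0.888 with PHO91, 0.641 with PHO87, 0.548 with PHO84, 0.463 with PHO90, 0.418 with PHO4, 0.407 with PHO89, 0.333 with SPL2, 0.178 with PHO80 and -0.305 with PHO81 over the 40 libraries. With that slope removed, a step chosen after seeing the data, 5 pairs passed, of which 4 were among the 7: PHO84 with PHO89, PHO87 with PHO90, PHO90 with PHO91, and PHO4 with PHO81. The pairs PHO84 with PHO91, PHO87 with PHO91 and PHO91 with PHO4 no longer passed. With the batch letter removed as well as the group, as a replicate block, 6 of the 7 passed, without PHO84 and PHO91. Without Ala replicate B 13 pairs passed, and without the 3 libraries highest in stress genes 8 passed, among them all 7. Scaled to equal totals 7 passed, 4 positive and 3 negative, of which 5 were shared, so the count of positive pairs depends on how libraries are scaled.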

How the data were processed

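Per the labels' protocols, libraries were directional and made from poly(A) RNA of 300 ng total RNA. STAR 2.7.8a and Partek are named per the submitters' processing notes. The deposited values are normalized read counts, taken as a signal. Dividing a library by its smallest step gave whole reads (within 0.1, up to 20000 reads) for 88.8 to 90.9% of genes, and the estimated depth. Too many were fractional for a count test. All 40 columns were mapped by name. The 4 emptied lines were left out.

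limma 3.58.1 (R 4.3.3) was fitted to log2(value + 1), with a trend in the prior variance and a mean for each of 10 groups, on genes averaging 5 or more. Calls used Benjamini-Hochberg at 0.05. This scale understates fold changes of low genes. The limma fit and the test of correlated pairs were tried on simulated data, and the other steps were not. Batch letters pair libraries per the labels. As a check, deviations had a mean r of 0.174 for the same letter, against -0.0576 otherwise. Deviations from a group mean cancel over its 4 letters, so the second value largely follows from the first. Members, lists, tests and alternatives were chosen with earlier results of these data known. Named were all members and, in each comparison, up to 4 called pathway genes of largest difference. The 5 genes outside the members most like PHO84, PHO89 and SPL2 were named too. Python 3.11.15 with numpy 2.4.6, pandas 2.3.3 and scipy 1.17.1 gave the rest.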

Additional observations from a re-analysis of the deposited data

Results flagged for a closer look

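Of 160 sets of 4 libraries (the 9 members and 7 named pathway genes, each in 10 groups), 7 held a library far from the other 3, by a gap above Dixon's 95% critical value. Chance alone flags about 1 set in 20. PHO84 had 7925 normalized reads in Met replicate D, against 6080 to 6219 in the other Met libraries. PHO89 had 1166 in Phe replicate B, against 668.5 to 687.9 in the others, and 24.9 in Cys replicate D, against 11.4 to 12. SPL2 had 675.6 in Gly replicate D, against 530.3 to 554.4. PHO87 had 1017 in Val replicate B, against 934.0 to 943.8, and PHO80 had 232.2 in Ile replicate B, against 207.3 to 211.4. PHO11 had 31.8 in Ctrl replicate D, against 23.5 to 24.8 in the other Ctrl libraries. All 7 were the highest of their set.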

How the results depend on the processing

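Without 1 library at a time, the number of pathway genes passing was 16 to 20 in Ala, 21 to 24 in Gly, 5 to 8 in Val, 0 to 1 in Ile, 15 to 17 in Thr, 8 to 10 in Phe, 13 to 18 in Trp, 1 to 4 in Cys and 9 to 12 in Met, and the number of members apart from Ctrl was 2 to 4 in Ala and 1 to 2 in Ile. The share of all genes without these libraries is not given here, so these counts have no background. Correlated pairs numbered 7 to 13. In Cys 0 pathway genes passed with the compared groups only. With equal totals 2 members were apart from Ctrl in Ile. With the batch letter as a replicate block the pathway counts were 18 in Ala, 17 in Thr and as before in the other comparisons, and every named pathway gene stayed past the threshold. Calls over all genes also grew with that block. In Ala they went from 1407 higher and 1474 lower to 1530 and 1673, and in Thr from 358 and 325 to 464 and 450. Pseudocounts of 0.25 and 4, no filter, the median of ratios, and leaving out the 3 libraries highest in stress markers changed no count of pathway genes by over 1.5 times. No named pathway gene reversed. Named pathway genes stayed past the threshold in 495 checks and fell short in 17. The 17 were for PHO5 in Val, PHO12 in Ile, or PHO3, PHO11 and PHO12 in Cys. Among the members, equal totals turned the sign of PHO91 in Ile and of PHO80 in Val and Ile, all within 0.05 of 0. Without the 3 libraries highest in stress markers, PHO80 in Gly turned from -0.058 to 0.046. Counting CACGTG alone gave 6 members with a motif, and windows of 300 and 1000 bases, added after seeing the data, 5 and 7. Protein identity was not run. Depth limits SPL2 and PHO89 in Cys, at 17 and 49 reads over 4 libraries.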
